A study of Mus musculus with 7 samples.

Results

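The cytosolic chaperonin CCT, also called TRiC, was followed through its 8 subunit genes, Tcp1 (the alpha subunit) and Cct2, Cct3, Cct4, Cct5, Cct6a, Cct7 and Cct8 (beta to theta). They were taken by gene symbol from a table of 51138 genes, and all 8 were found and passed the filter on low counts. RNA was sequenced from regulatory T cells (Tregs) of the spleen, sorted from C57/BL6 mice that carry a red fluorescent Foxp3 reporter. The FP group had 4 samples from mice given 20 ug of a fusion protein of interleukin-2 with CD25, the alpha chain of its receptor, and the PBS group had 3 samples from mice given 100 uL of PBS. Tregs of both groups were collected 72 h after the injection, and the mice of both groups carried the reporter. The age and sex of the mice and the gate of the sort are not given in the sources used here, and the replicates are not said to be separate mice, so each p value reflects the variation among these samples alone, which may be technical.

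CCT is built of stacked rings, each with 8 different subunits, and uses ATP to close a chamber in which newly made proteins fold. Actin and tubulin depend on it, as do many proteins with WD40 repeats, such as the mitotic activator Cdc20 and the beta subunits of G proteins. Prefoldin hands unfolded actin and tubulin to it, and the HSP70 chaperones act earlier on the growing chain. In mice, T cells that lack Cct8 are impaired in maturation and function.

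The starts of the subunit genes are shown for Cct2 and Cct5, which had the highest levels, for Cct7, which has 3 CCAAT boxes, and for Cct3, which with Cct4 rose least. The sequences come from RefSeq on GRCm38.p6, which had an entry for 7 of the 8 genes, and are the parts of the 250 bases before the RefSeq start that hold no annotated UTR. Capitals mark matches, on either strand, to 1 of 7 motifs: the CCAAT box (CCAAT), the GC box (GGGCGG), the E box (CACGTG), the NRF1 site, the STAT5 site (TTCNNNGAA) and the heat shock element read as GAANNTTC or TTCNNGAA.
Cct2, chr10:117063853-117064102, minus strand: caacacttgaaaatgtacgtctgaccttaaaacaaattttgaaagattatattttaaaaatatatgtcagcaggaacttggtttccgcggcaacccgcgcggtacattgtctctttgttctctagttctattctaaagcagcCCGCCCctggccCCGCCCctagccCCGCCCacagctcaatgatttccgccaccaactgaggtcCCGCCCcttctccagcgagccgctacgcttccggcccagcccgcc
Cct5, chr15:31601847-31602096, minus strand: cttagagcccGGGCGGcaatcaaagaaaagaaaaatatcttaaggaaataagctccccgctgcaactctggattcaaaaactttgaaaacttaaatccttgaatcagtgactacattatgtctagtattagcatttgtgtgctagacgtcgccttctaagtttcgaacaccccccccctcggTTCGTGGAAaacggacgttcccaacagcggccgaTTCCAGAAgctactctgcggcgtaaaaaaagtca
Cct7, chr6:85451284-85451504, plus strand: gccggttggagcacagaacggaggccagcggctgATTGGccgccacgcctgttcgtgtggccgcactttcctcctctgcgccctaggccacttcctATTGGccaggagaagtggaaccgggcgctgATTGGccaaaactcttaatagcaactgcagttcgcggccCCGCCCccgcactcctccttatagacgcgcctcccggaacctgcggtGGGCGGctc
Cct3, chr3:88297000-88297115, plus strand: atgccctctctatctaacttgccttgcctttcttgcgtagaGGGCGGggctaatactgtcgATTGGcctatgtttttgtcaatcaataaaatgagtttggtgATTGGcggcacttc
Over the full 250 bases, the 7 genes had 9 windows. Of these windows 8 held a GC box, at least 1 in each gene, against 32.7% of the 32851 promoter windows of the same length in the table. The 9 windows held 45.2% to 66.8% G and C, against a median of 52.4% over all windows, which bears on matches to GGGCGG. The CCAAT box was found in 4 of the 9 windows, those of Tcp1, Cct3, Cct6a and Cct7, and in 33.8% of all windows. Cct5 held a TTCNNNGAA and a TTCNNGAA match in the window shown, and a second Cct2 window held a GAANNTTC match. These 3 motifs were in 7.02%, 7.17% and 6.69% of all windows. The E box, in 6.02% of all windows, and the NRF1 site, in 0.782%, were in no window of the 7 genes. Motifs can overlap each other, and a match describes these letters alone.

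All 8 subunit transcripts rose after FP, by 1.44-fold to 1.91-fold. Adjusted p values here are from edgeR's quasi-likelihood test with Benjamini-Hochberg adjustment over all 15954 genes tested, at a threshold of 0.05. In simulated counts with the same group sizes but far fewer changed genes than called here, the share of false calls was above that threshold. That share need not hold for these data, and values close to the threshold are taken as weak calls. In the same test 21% of all genes were called higher, 18.5% lower and 39.5% in either direction. The median log2 fold change was 0.78 over the 8 subunits and -0.05 over all genes tested. For 7 of the 8 every FP library lay above every PBS library, as it did for 23.2% of all genes; every FP library lay below every PBS library for 23.5% of all genes, so 46.7% had groups that did not overlap. Levels are given as CPM, reads of a gene per 1000000 reads counted, with library sizes scaled by TMM, and total counts ran from 9956509 to 13429878 per library.

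The genes lie on 8 chromosomes of GRCm38, Tcp1 (ENSMUSG00000068039.12) at chr17:12915701-12925067 on the plus strand, Cct2 (ENSMUSG00000034024.8) at chr10:117051001-117063814 on the minus strand and Cct3 (ENSMUSG00000001416.13) at chr3:88297116-88321767 on the plus strand. Cct4 (ENSMUSG00000007739.10) lies at chr11:22990519-23003780 on the plus strand, Cct5 (ENSMUSG00000022234.14) at chr15:31590800-31601804 on the minus strand and Cct6a (ENSMUSG00000029447.11) at chr5:129786998-129846371 on the plus strand. Cct7 (ENSMUSG00000030007.8) lies at chr6:85451514-85468475 on the plus strand and Cct8 (ENSMUSG00000025613.13) at chr16:87483326-87495873 on the minus strand.

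Tcp1, Cct2 and Cct5 rose most, by 0.92 to 0.93 on the log2 scale, and their order changed with the libraries used. Tcp1, the subunit named for the t complex of mouse chromosome 17, measured 239.8, 231, 174 and 140.3 CPM in FP replicates 1 to 4, against 111, 104 and 92.7 CPM in PBS replicates 1 to 3. Tcp1 rose by 0.93 in log2 units, with a standard error (SE) of 0.18 and an adjusted p of 0.00263. Cct2 measured 320.3, 368, 288 and 239.7 CPM in the FP replicates, against 187, 152 and 139.9 CPM in the PBS replicates. Cct2 also rose by 0.93, with an SE of 0.15 (adjusted p = 0.00112). For both genes FP replicate 4 was the lowest FP library and still lay above every PBS library.

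Cct5, a subunit whose human form can assemble into rings of its own, measured 356, 357, 251 and 187 CPM in the FP replicates, against 171, 155 and 130.1 CPM in the PBS replicates. It rose by 0.92 with an SE of 0.22 (adjusted p = 0.00969), and did not pass when low genes were not filtered out (0.94, adjusted p = 0.0557). Cct5 had the widest spread among FP libraries, averaging 288 ± 83.5 CPM over 4 FP libraries, against 152 ± 20.5 CPM over 3 PBS libraries (mean ± SD). Cct7 measured 211, 235, 194 and 159 CPM in the FP replicates, against 128, 118 and 101 CPM in the PBS replicates, and rose by 0.79 with an SE of 0.14 (adjusted p = 0.00143). Cct6a, which has a testis paralog in Cct6b, measured 202, 189.9, 135 and 119 CPM in the FP replicates, against 104, 96.0 and 83.7 CPM in the PBS replicates. Cct6a rose by 0.77 with an SE of 0.18 (adjusted p = 0.00872). In none of these 3 genes did the groups overlap, and in each FP replicates 1 and 2 were the 2 highest libraries.

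Cct8 measured 273, 274, 197 and 169 CPM in the FP replicates, against 153, 141 and 132 CPM in the PBS replicates, and rose by 0.68 with an SE of 0.17 (adjusted p = 0.00972). Cct3 and Cct4 had the smallest changes. Cct3 measured 183, 179, 142 and 124 CPM in the FP replicates, against 122, 108 and 97.7 CPM in the PBS replicates. It rose by 0.52 (SE 0.14, adjusted p = 0.0157), with FP replicate 4 close above PBS replicate 1. Cct4 measured 252, 258, 185 and 164 CPM in the FP replicates, against 166, 148 and 132 CPM in the PBS replicates. It rose by 0.53 (SE 0.16, adjusted p = 0.0286), and its groups overlapped, since FP replicate 4 lay below PBS replicate 1.

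**Figure D1:**
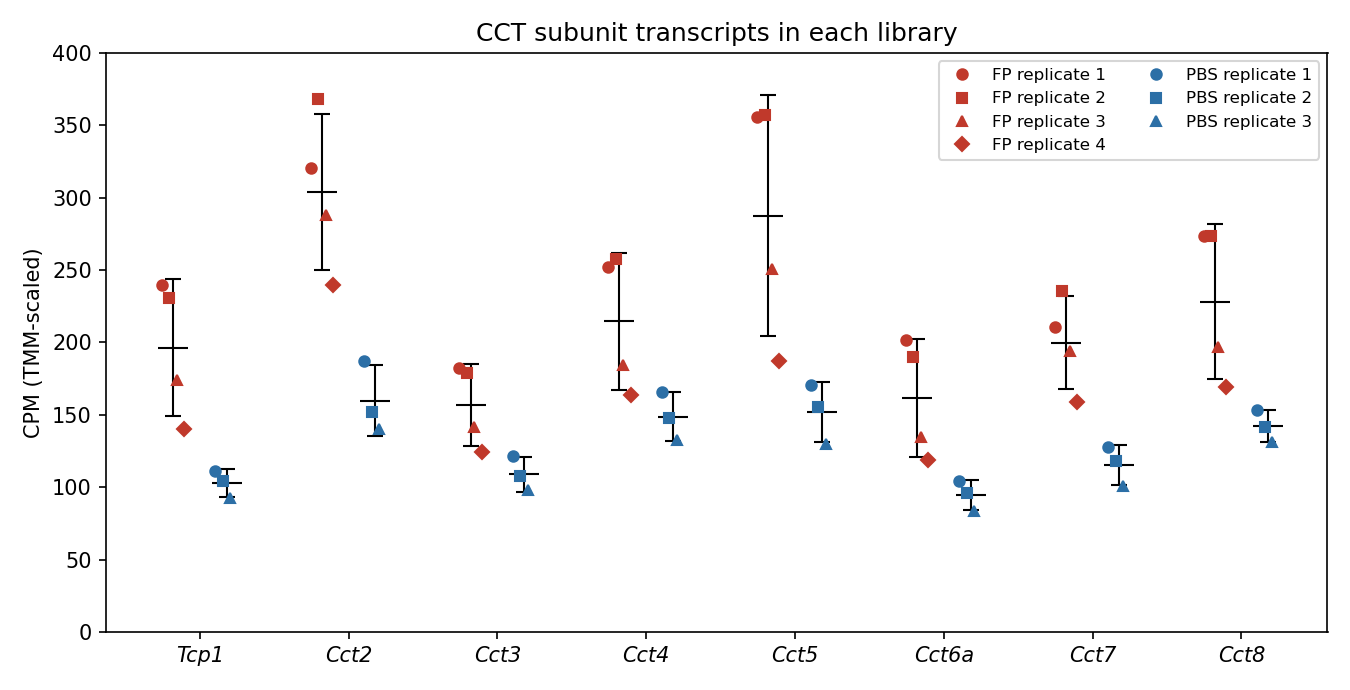
TMM-scaled CPM of the 8 subunit transcripts in each library, FP in red left of PBS in blue, with 1 marker per replicate and black lines for the mean and SD (n = 4 FP, n = 3 PBS). FP replicates 1 and 2 are the highest libraries for every subunit, and Cct4 is the subunit whose groups overlap (164 CPM in FP replicate 4, 166 CPM in PBS replicate 1).

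Summed over the subunits, the complex took 0.171%, 0.177%, 0.152% and 0.136% of all counts in FP replicates 1 to 4, against 0.122%, 0.114% and 0.104% in PBS replicates 1 to 3. This share uses no scaling factor, and every FP library lay above every PBS library. The mean share was 0.159 ± 0.0188% over 4 FP libraries, against 0.114 ± 0.00910% over 3 PBS libraries (± SD), a ratio of 1.40. With TMM scaling the sum was 1749 ± 380.4 CPM after FP and 1024 ± 117 CPM after PBS, a ratio of 1.71. The TMM factors were 0.839, 0.849, 0.971 and 1.05 in the FP replicates and 1.07, 1.12 and 1.15 in the PBS replicates, so the libraries with the highest chaperonin sums also had the smallest factors.

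The size of the change therefore depended on the scaling. With library size alone the median of all genes was -0.31 and the 8 subunits ran from 0.24 to 0.65 on the log2 scale. With upper-quartile factors the median of all genes was -0.25 and the subunits ran from 0.31 to 0.72. Under upper-quartile scaling the call of Cct4 was lost (0.31, adjusted p = 0.0758). Without any factor, Cct3 stood at 0.24 (adjusted p = 0.0836) and Cct4 at 0.24 (adjusted p = 0.121), so both missed the threshold. Relative to the median of all genes under library size alone, Cct3 and Cct4 stood at 0.55 and 0.55, and Tcp1, Cct2 and Cct5 at 0.95, 0.96 and 0.94. Leaving out 1 library also ended calls of these genes: Cct3 missed the threshold without PBS replicate 2 (adjusted p = 0.0590) or PBS replicate 3 (adjusted p = 0.0781), and Cct4 missed it without FP replicate 1 (adjusted p = 0.0537), FP replicate 2 (adjusted p = 0.0728), PBS replicate 2 (adjusted p = 0.0844) or PBS replicate 3 (adjusted p = 0.120). The other 6 subunits passed under each of these scalings and without any single library, though Cct5 did not pass without the filter. Without PBS replicate 3 the calls of Cct8 (adjusted p = 0.04999), Cct5 (adjusted p = 0.0474) and Cct6a (adjusted p = 0.0460) were close to the threshold and so weak.

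**Figure D2:**
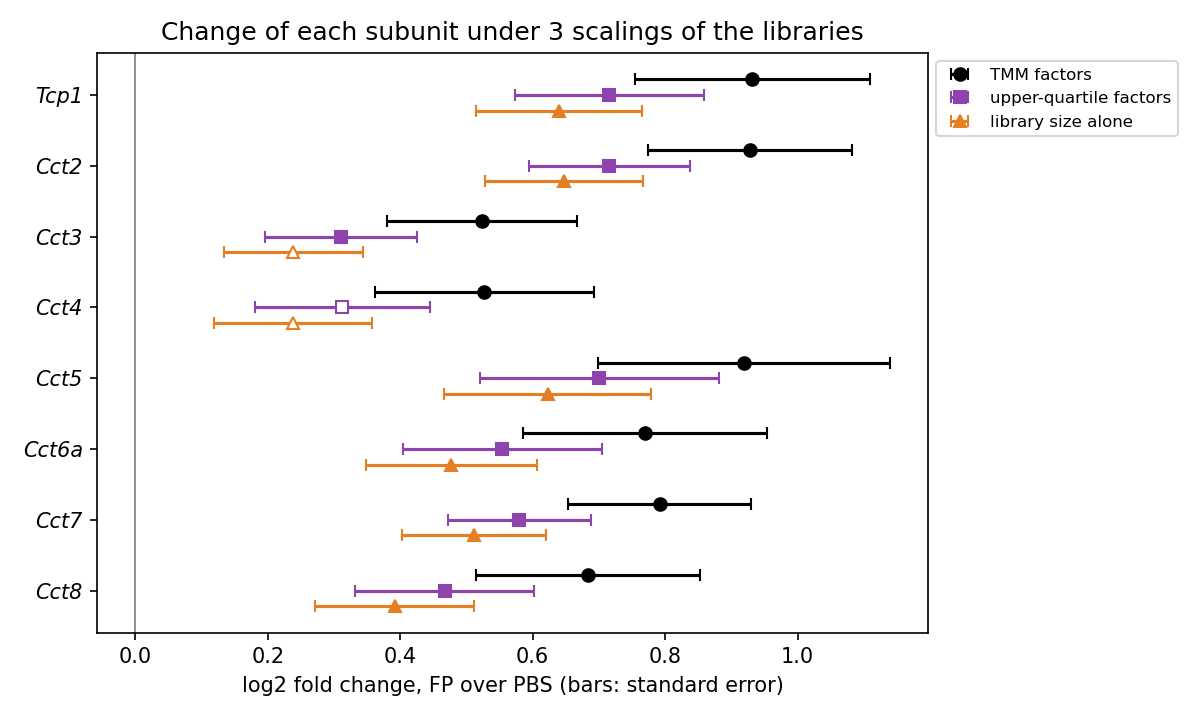
Log2 fold change of each subunit, FP over PBS, under TMM factors (circles), upper-quartile factors (squares) and library size alone (triangles), with bars for the standard error; open symbols did not pass (adjusted p of 0.05 or more). All values lie above 0, and the open symbols are Cct3 with library size alone and Cct4 with library size alone and with upper-quartile factors.

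The sorted cells carried Treg transcripts in both groups: the summed level of Foxp3, Il2ra, Ikzf2, Ctla4 and Tnfrsf18 was 4065 to 4691 CPM after FP and 2251 to 2475 CPM after PBS. Il2ra, an IL-2 receptor gene, made up a large part of that rise, averaging 1938 CPM after FP and 602 CPM after PBS. Foxp3, the transcription factor that defines Tregs, averaged 540.2 CPM (SD 52.9) over the 4 FP libraries and 491 CPM (SD 7.24) over the 3 PBS libraries. Its change of 0.14 missed the threshold (adjusted p = 0.292), and its sign turned under other scalings, to -0.068 with upper-quartile factors. Exons of Foxp3 overlap those of other genes, among them Flicr on the same strand, which had 5036 counts over all libraries. For the marker counts below, 18.5% of all genes were called lower and 21% higher, and lists of 3 or 4 markers are too short to read against these shares. All 9 markers of monocytes and macrophages fell, with sums of 18.8 to 97.6 CPM after FP and 475 to 1191 CPM after PBS. None of the 9 was at 0 in every library. Of 4 dendritic cell markers 2 fell and 2 were too low to test (10.8 to 15.3 CPM after FP, 22.2 to 30.7 CPM after PBS). Of 3 NK cell markers 1 fell and 2 were too low to test (0.967 to 1.56 CPM after FP, 4.03 to 5.96 CPM after PBS). Of 3 platelet markers 1 fell and 2 were too low to test, and their sums overlapped (2.38 to 4.08 CPM after FP, 3.97 to 5.34 CPM after PBS). Of 4 B cell markers 1 rose, with sums of 16.3 to 25.7 CPM after FP and 15.5 to 26.4 CPM after PBS. Neutrophil markers, all too low to test, summed to 0.641 to 1.24 CPM after FP and at most 0.147 CPM after PBS, and CD8 T cell markers to 7.84 to 12.9 CPM after FP and 8.93 to 9.80 CPM after PBS. The part of other cells in the chaperonin result was not tested. In bulk RNA, fewer cells of a type and less RNA per cell cannot be told apart.

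The proliferation marker Mki67 was also higher after FP (log2 fold change 4.61, adjusted p = 3.06e-06). It measured 1363, 1553, 1409 and 817 CPM in FP replicates 1 to 4, against 62.3, 54.5 and 41.1 CPM in PBS replicates 1 to 3. As for the chaperonin sum, FP replicate 2 was its highest library and FP replicate 4 the lowest of the FP group, and PBS replicate 1 was the highest and PBS replicate 3 the lowest of the PBS group. FP replicates 1 and 3 stood in opposite orders, at 1363 and 1409 CPM for Mki67 and 2037 and 1565 CPM for the chaperonin sum. The part of cell division in the chaperonin result was not tested.

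The proportions of the subunits were compared within each library. Relative to the mean log2 CPM of the other 7, Cct4 stood at 0.01 (SD 0.04) over 4 FP libraries, against 0.28 (SD 0.01) over 3 PBS libraries. Cct3 stood at -0.49 ± 0.07 after FP and -0.24 ± 0.02 after PBS. For these 2 genes every FP library was below every PBS library. Tcp1 went the other way, at -0.14 ± 0.06 after FP and -0.33 ± 0.04 after PBS, with every FP library above every PBS library. The groups overlapped for Cct2, Cct5, Cct6a, Cct7 and Cct8. Relative to the mean log2 CPM of the 8 subunits, 5.84% of all genes tested had every FP library above every PBS library, 58.2% had every FP library below, and 64.1% had groups that did not overlap. The subunits are balanced around their own mean, so their count of 3 in 8 cannot be read against these shares. These ratios do not depend on how the libraries are scaled.

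A fit over all genes with the summed counts of the 8 subunits as the library scale asked whether any subunit changed by a different amount from the complex. Cct4 changed by -0.24 (SE 0.15, adjusted p = 0.167), Cct3 by -0.24 (SE 0.15, adjusted p = 0.18), Cct2 by 0.17 (SE 0.16, adjusted p = 0.338) and Tcp1 by 0.15 (SE 0.15, adjusted p = 0.383). By edgeR 0 of 8 subunits passed, 0 had an unadjusted p under 0.05, and 0 passed in limma-voom. The edgeR SEs of the 8 subunits were all 0.15 to 0.16 and did not follow each subunit's own scatter. Relative to the other subunits in the same library, Cct4 had SDs of 0.04 (FP) and 0.01 (PBS), and Cct5 of 0.15 and 0.05. Each subunit is also part of the sum that scales it. The fit therefore cannot decide whether Cct3, Cct4 and Tcp1 changed by a different amount from the complex. Of all 15954 genes 63.8% passed on this scale, a share the subunits cannot be read against, since the scale is their own sum. This fit was chosen after the data were seen, and a p that misses the threshold does not show that the subunits rose equally.

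**Figure D3:**
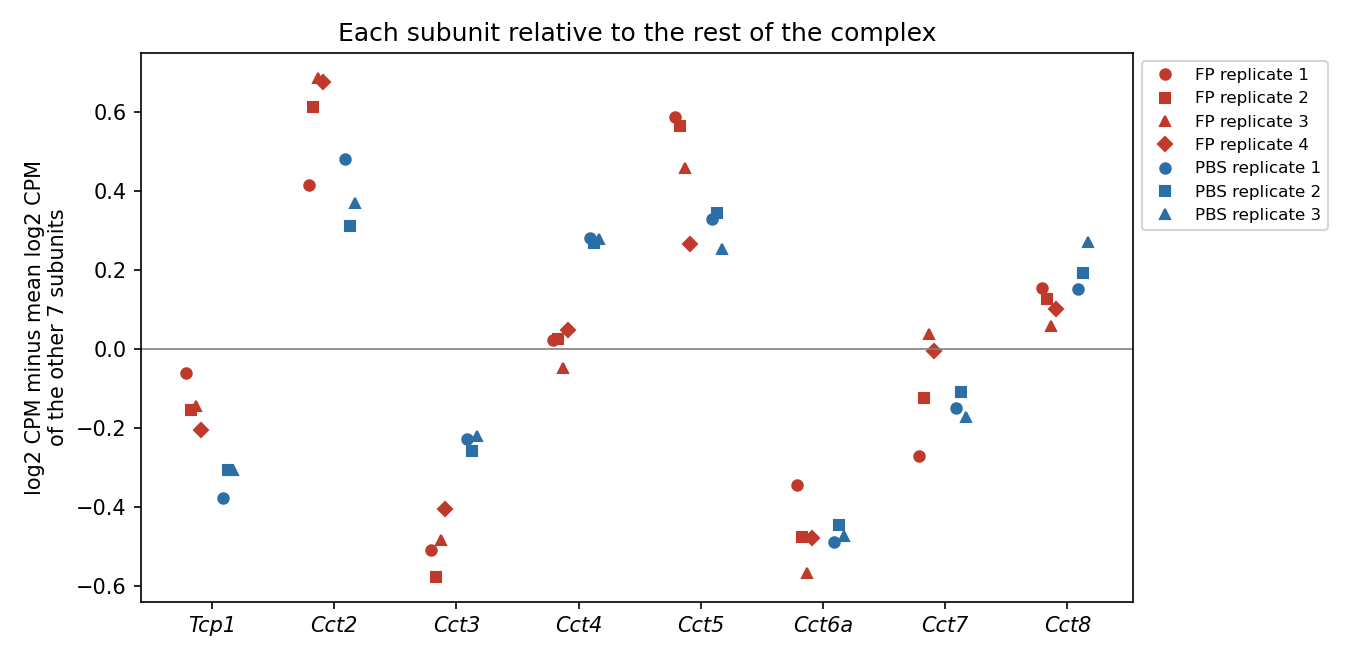
Log2 CPM of each subunit minus the mean log2 CPM of the other 7 in the same library, FP in red left of PBS in blue, with 1 marker per replicate. Cct3 and Cct4 are lower in all 4 FP libraries than in all 3 PBS libraries and Tcp1 is higher; heights of different genes also reflect their lengths.

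Levels between subunits were compared as CPM per kilobase of all annotated exons. In FP libraries the order was Cct2 (119 ± 21.1), Cct5 (104 ± 30.2), Cct8 (73.9 ± 17.3), Cct4 (51.1 ± 11.3), Cct6a (44.6 ± 11.3), Tcp1 (39.0 ± 9.40), Cct7 (29.5 ± 4.76) and Cct3 (24.6 ± 4.47; SD, n = 4). In PBS libraries it was Cct2 (62.5 ± 9.65), Cct5 (55.0 ± 7.42), Cct8 (46.0 ± 3.54), Cct4 (35.4 ± 4.01), Cct6a (26.1 ± 2.82), Tcp1 (20.4 ± 1.88), Cct3 (17.1 ± 1.90) and Cct7 (17.0 ± 2.04; SD, n = 3). Neighbours in the FP order differed by less than the larger of their SDs, except for the steps from Cct8 to Cct4, from Tcp1 to Cct7 and from Cct7 to Cct3. In the PBS order Cct2 and Cct5, and Cct3 and Cct7, differed by less than the larger SD, and the other neighbours by more. These SDs hold a spread between libraries that the subunits share, so they do not measure how firm the order is. Within each of the 4 FP libraries Cct5 lay above Cct8, Cct4 above Cct6a and Cct6a above Tcp1. Cct2 lay above Cct5 except in FP replicate 1 (125 against 129). Per kilobase of the longest transcript instead, Cct5 and Cct2 measured 155 and 155 after FP and 82.1 and 81.5 after PBS, and Cct3 47.0 after FP and 32.7 after PBS, so the order rests partly on the choice of length. Pairs further apart than their SD also changed places: in PBS libraries Cct8 and Cct4 measured 59.3 and 59.9 per kilobase of the longest transcript, and Tcp1 and Cct3 30.1 and 32.7.

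**Figure D4:**
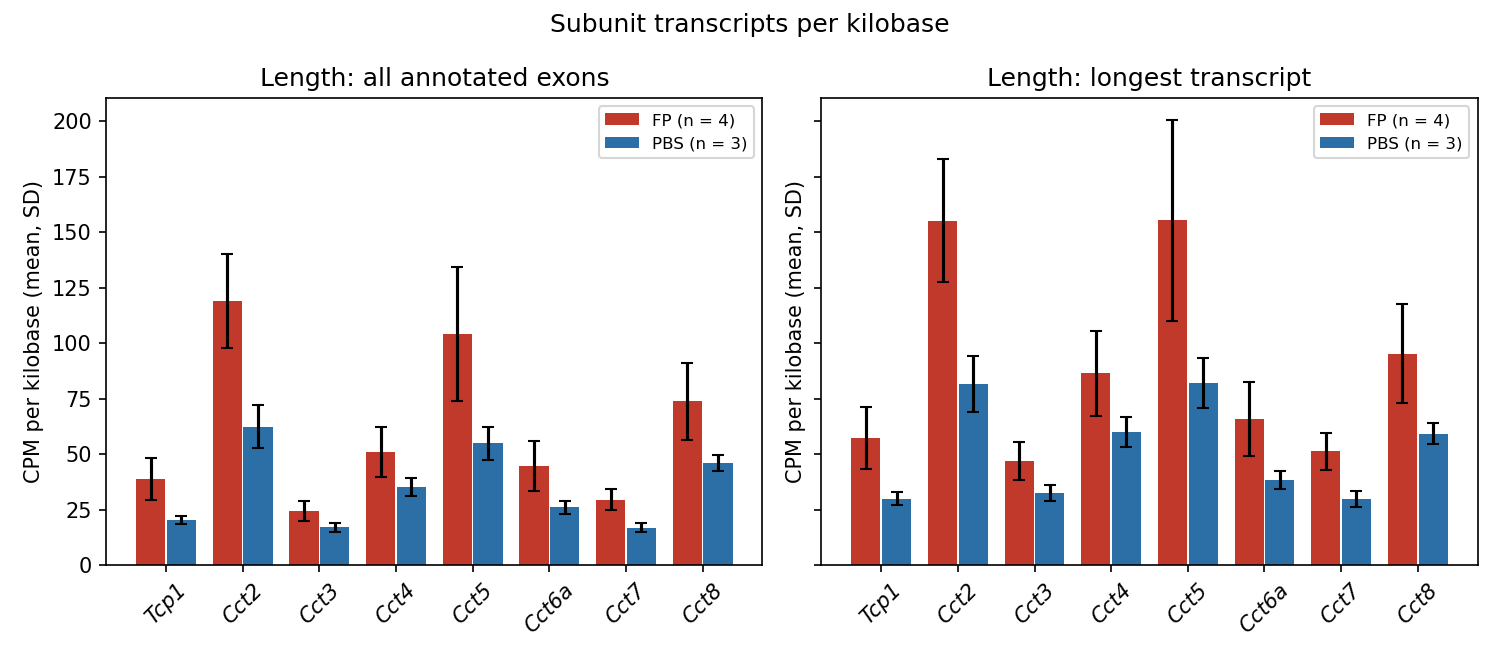
Mean CPM per kilobase of each subunit with SD, FP in red (n = 4) left of PBS in blue (n = 3), over the length of all annotated exons (left) or of the longest transcript (right). Cct2 and Cct5 are the highest with either length, at 119 and 104 after FP over all exons, and Cct3 and Cct7 are among the lowest.

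Cct6b, the testis paralog of Cct6a, had 8, 2, 5 and 3 counts in the FP replicates and 11, 5 and 5 counts in the PBS replicates, too few to test. Cct8l1, related to Cct8, was also too low to test, with at most 5 counts in a library. Tcp1, Cct6a, Cct7 and Cct8 share some exon positions with a protein-coding gene on the other strand. As the strand setting of the counting is not given, how reads at those positions were assigned is not known. The limit concerns the shared positions alone. No such overlap was found for Cct2, Cct3, Cct4 and Cct5.

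Most subunit genes had a neighbour that starts close by on the opposite strand. For 6 of the 8, all but Cct2 and Cct4, such a gene start lay within 1000 bases in the annotation, as it did for 16.9% of 21841 protein-coding genes. These neighbours did not move one way, and 39.5% of all genes were called in either direction. Mrpl18, Psph and Pradc1 share some exon positions with Tcp1, Cct6a and Cct7, and how reads at those positions were assigned is not known. Mrpl18, a mitochondrial ribosomal protein gene beside Tcp1, averaged 54.1 CPM (SD 12.2) over 4 FP libraries, against 20.9 CPM (SD 2.44) over 3 PBS libraries, and rose by 1.37 (adjusted p = 0.000295). Psph, a serine synthesis gene beside Cct6a, rose by 0.58 (adjusted p = 0.0153). Fam173b beside Cct5 fell by 0.88 (adjusted p = 0.000961), with 14.4 ± 1.37 CPM after FP and 26.5 ± 4.03 CPM after PBS. The long RNA B130034C11Rik beside Cct8 fell by 1.77 (adjusted p = 0.00142), and Pradc1 beside Cct7 (0.21, adjusted p = 0.402) and Tsacc beside Cct3 (0.05, adjusted p = 0.905) did not pass.

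Of the 6 genes of prefoldin, the partner that delivers actin and tubulin to the chaperonin, 4 rose and 2 missed the threshold. The share of all genes called higher was 21%. The median change of the prefoldin genes in log2 units was 0.80. Pfdn1 measured 56.0, 49.0, 30.5 and 25.2 CPM in the FP replicates, against 15.1, 11.9 and 12.8 CPM in the PBS replicates, and rose by 1.60 (SE 0.28, adjusted p = 0.00173). Vbp1 and Pfdn6 rose by 0.79 and 0.82. Pfdn2 (0.35, adjusted p = 0.108) and Pfdn5 (0.49, adjusted p = 0.136) were the members that did not pass. Among 4 proteins that bind the chaperonin as co-chaperones, Pdcl3, a phosducin-like protein, rose by 0.93 (adjusted p = 0.00805), and the other 3 did not pass. These are too few genes to read against the 21% of all genes called higher. Among 8 genes of the prefoldin-like and R2TP complexes 2 rose, Pih1d1 by 0.65 (adjusted p = 0.0171) and the ATPase gene Ruvbl2 by 0.63 (adjusted p = 0.0187), and 6 did not pass. This is 25% of the list, near the 21% of all genes called higher. Pih1d1 shares exon positions with Aldh16a1 on the other strand, which had 2715 counts over the 7 libraries, and Ruvbl2 with Gys1, which had 1385. Both missed the threshold without a scaling factor, Pih1d1 at 0.37 (adjusted p = 0.0774) and Ruvbl2 at 0.35 (adjusted p = 0.0660), and also without PBS replicate 3 (adjusted p = 0.0831 for Pih1d1, 0.0881 for Ruvbl2).

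Clients of the chaperonin moved over a wider range than its subunits. For the counts below, 21% of all genes were called higher and 18.5% lower. Of 12 tubulin genes tested 7 rose, 1 fell and 4 missed the threshold; the median was 0.82. Tubb5 measured 1207, 1344, 1345 and 794 CPM in the FP replicates, against 499, 427 and 396 CPM in the PBS replicates, and rose by 1.41 (SE 0.18, adjusted p = 0.000289). Tuba1c and Tubb4b rose by 1.60 and 1.50, and Tubb2a fell by 1.06 (adjusted p = 0.00347), averaging 4.89 CPM (SD 1.08) over 4 FP libraries, against 10.1 CPM (SD 1.73) over 3 PBS libraries. Tubulin genes are close copies of each other, so their separate counts are uncertain. Of 6 actin and actin-related genes 5 rose and 1 missed the threshold; the median was 0.79. Actg1, a cytoplasmic actin, measured 1166 ± 172 CPM after FP and 376 ± 39.4 CPM after PBS and rose by 1.63 (adjusted p = 1.77e-05), Actb by 1.05 and Actr2, of the Arp2/3 complex, by 0.91.

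Of 16 other clients 9 rose, 1 fell and 6 missed the threshold, where 21% of all genes were called higher and 18.5% lower. The median of these clients was 0.37. The largest rises among them were those of the mitotic kinase Plk1 (3.90, adjusted p = 5.40e-05), of Cdc20 (3.36, adjusted p = 3.71e-06) and of cyclin E2, Ccne2 (2.31, adjusted p = 0.000210, named after its value was seen), with cyclin E1, Ccne1, at 1.80. Exons of Cdc20, Ccne2 and Plk1 overlap a gene on the other strand, with 4635 counts for Elovl1 beside Cdc20, 5839 for Ints8 beside Ccne2 and 63 for Gm44985 beside Plk1. Cdc20 measured 37.1, 47.6, 37.4 and 25.7 CPM in the FP replicates, against 3.53, 3.44 and 3.77 CPM in the PBS replicates. Rptor, the substrate adaptor of the mTORC1 kinase complex, fell by 0.27 (adjusted p = 0.0223), and lost its call with no filter on low counts (adjusted p = 0.0945) and without FP replicate 1, PBS replicate 1, PBS replicate 2 or PBS replicate 3 (adjusted p = 0.0516 to 0.106). Of 6 cofactors and regulators of tubulin assembly 3 rose, 1 fell and 2 did not pass. Tbca rose by 1.50, Tbcb by 0.86 and Tbcd by 0.47, of which Tbcd missed the threshold without a scaling factor (0.19, adjusted p = 0.154). Exons of Tbcb overlap Polr2i and those of Tbcd overlap B3gntl1, each on the other strand. The small GTPase gene Arl2 fell by 0.72 (adjusted p = 0.0183), a call lost when PBS replicate 2 was left out (adjusted p = 0.106), and its exons overlap Batf2 on the other strand.

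Of 14 HSP70, HSP90 and ribosome-bound chaperone genes that act before the chaperonin, 10 rose and 4 missed the threshold, where 21% of all genes were called higher. The median of the 14 was 0.67. Hspa8, the constitutive HSP70, measured 930, 952, 767 and 499.99 CPM in the FP replicates, against 393, 384 and 300.1 CPM in the PBS replicates, and rose by 1.13 (SE 0.21, adjusted p = 0.00264). Hsp90ab1 rose by 0.75 and Dnajc2, an HSP70 partner at the ribosome, by 0.69. Of 5 tested genes of other chaperonins, Hspd1 and Hspe1, the mitochondrial HSP60 and its lid HSP10, rose by 0.67 and 0.86 (adjusted p = 0.00775 and 0.0444). Hspe1 lost its call under 3 settings, among them limma-voom (adjusted p = 0.0504), and without FP replicate 1, FP replicate 2, PBS replicate 2 or PBS replicate 3. Hspd1 and Hspe1 share exon positions on opposite strands.

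Of 4 transcription regulators 0 rose and 1 fell, too few genes to read against the 21% of all genes called higher and 18.5% called lower. Hsf2, a heat shock factor, averaged 19.5 CPM (SD 1.53) over 4 FP libraries, against 26.0 CPM (SD 1.24) over 3 PBS libraries. It fell by 0.41 (adjusted p = 0.0172), a call lost without PBS replicate 1 (adjusted p = 0.0872), PBS replicate 2 (adjusted p = 0.0546) or PBS replicate 3 (adjusted p = 0.0521). Hsf1, the main heat shock factor, measured 35.0, 40.9, 39.8 and 39.2 CPM in the FP replicates, against 41.4, 46.5 and 44.1 CPM in the PBS replicates. Its groups did not overlap, but its change of -0.18 missed the threshold (adjusted p = 0.166). Upper-quartile scaling gave -0.39 (adjusted p = 0.0118) and no scaling factor -0.45 (adjusted p = 0.0176), both past the threshold. Myc, a driver of cell growth, measured 114 ± 19.4 CPM after FP and 97.5 ± 13.5 CPM after PBS (0.23, adjusted p = 0.242), was called higher when FP replicate 4 was left out (0.33, adjusted p = 0.0394) and turned to -0.056 with library size alone.

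The core proteasome, another complex of many different subunits, also rose. All 14 of its genes were called higher, against 21% of all genes, by 0.82 to 1.41, with a median of 1.19. The subunits of the chaperonin ran from 0.52 to 0.93. Psma5, Psmb5 and Psmb7 rose by 1.40, 1.15 and 1.17, and exons of Psmb7 overlap Nek6 on the other strand. The difference between the complexes was not tested.

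**Figure D5:**
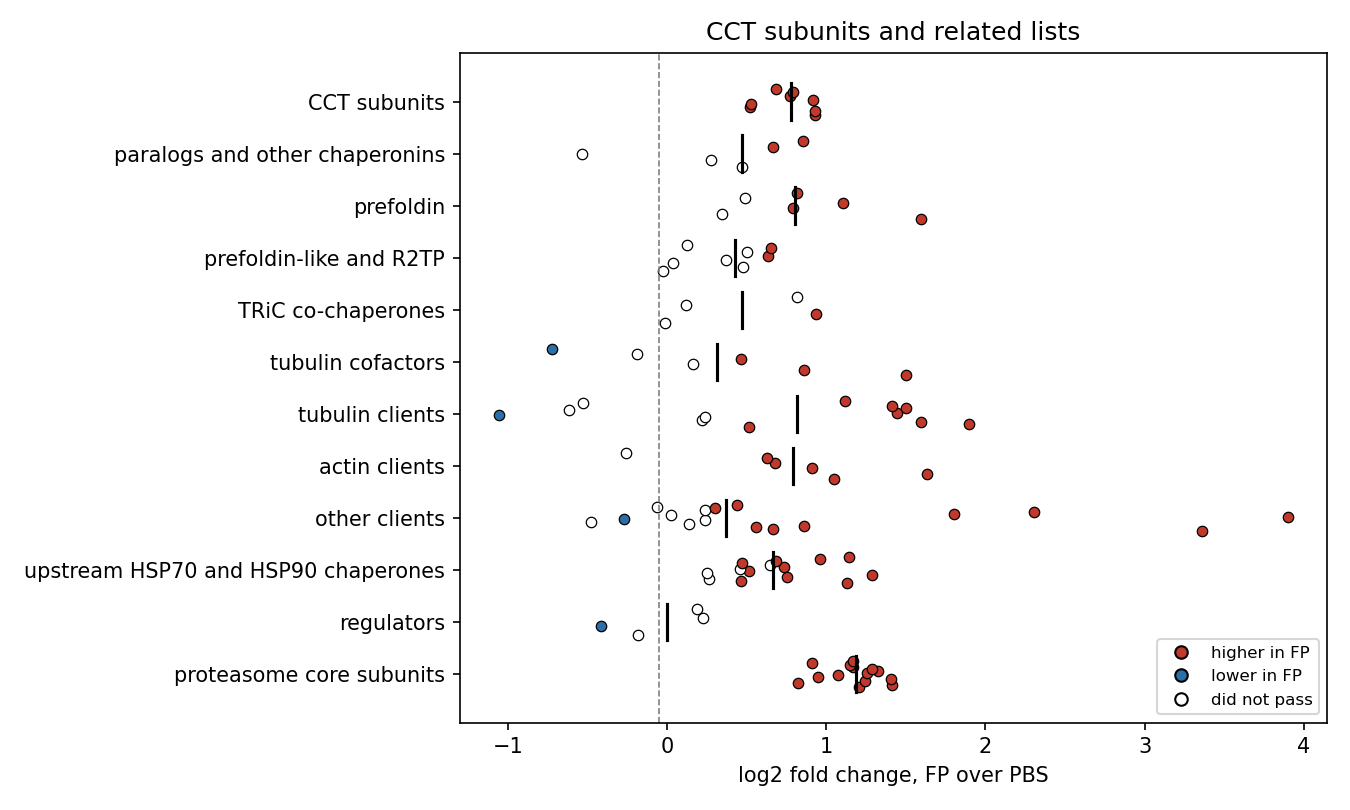
Log2 fold change, FP over PBS, of every tested gene in the chaperonin and in 11 related lists, filled red where higher in FP, blue where lower and open where the test was not passed; short lines are list medians and the dashed line is the median of all tested genes (-0.05). The 8 chaperonin subunits lie between 0.52 and 0.93, with clients on both sides of them.

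The genes most like the chaperonin were sought among 8522 genes with a mean of at least 10 CPM. Likeness was the root mean square difference over the 7 libraries between a gene's centred log2 CPM and the mean of the 8 subunits, which is 0 for an identical pattern and follows the difference between the groups to a large part. The nearest were Atp6v1f, a subunit of the vacuolar proton pump (0.04), Eif3l, of translation initiation factor 3 (0.04), and Aimp1, of the aminoacyl-tRNA synthetase complex (0.05). They were followed by Pdia6, a disulfide isomerase of the endoplasmic reticulum (0.06), Eif3c (0.06), Hspd1 (0.06), the elongation factor gene Eef1d (0.06) and Park7 (0.06). All 8 of them were called higher, and Eef1d lost its call without PBS replicate 3 (adjusted p = 0.0541). Among the subunits, which are part of that mean, Cct6a and Cct8 were nearest (0.05 and 0.05) and Cct2 and Cct3 farthest (0.12 and 0.12). Eif3c measured 381, 413, 317 and 248 CPM in the FP replicates, against 215, 185 and 172 CPM in the PBS replicates, so that FP replicates 1 and 2 were its highest libraries and PBS replicate 3 its lowest, as for the subunits. Its fold change was 1.78, within the range of the subunits. The library order, fold changes and calls of these 8 genes largely follow from how they were chosen and are no separate result.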

How the data were processed

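The authors deposited unnormalized read counts in 1 table with a column for each library, and columns were matched to samples by name. Per the design text and the submitters' processing notes, the authors mapped reads to GRCm38 with STAR (2.5.0b in the notes) and assigned them to genes of GENCODE M13 using featureCounts 1.5.0. Per the labels' protocols, libraries were made from 25 ng of total RNA after removal of ribosomal RNA. The strand setting and the handling of reads that map to several places are not given in the sources used here.

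Symbols were found for 50462 of 51138 identifiers. Coordinates, lengths and neighbours come from GENCODE M21 on the same build. FP was tested against PBS by edgeR 4.0.16 under R 4.3.3 (4 against 3 libraries, filterByExpr, TMM, robust quasi-likelihood test), with standard errors taken from the F statistic; DESeq2 1.42.0 and limma-voom (limma 3.58.1) were alternatives. The edgeR test was tried on simulated counts with far fewer changed genes than were called here. There the share of false calls was above the threshold of 0.05. CPM of tested and untested genes use the same scaled library sizes. A count of 0 allows up to 3 counts, or 0.214 to 0.322 CPM; this covers counting error alone.

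The members and lists were chosen with earlier results of these data known. The rule for named genes took the 8 members, 7 genes in every case (Cct6b, Hsf1, Hsf2, Myc, Mki67, Foxp3, Il2ra), up to 3 risen and 2 fallen genes per related list by the smallest p, and the 8 genes of the nearest pattern; it gave 51 genes. Genes named besides these were chosen after their values were seen. Il2ra, an IL-2 receptor gene, measured 1938 ± 317 CPM after FP and 602 ± 32.6 CPM after PBS (SD, n = 4 and 3).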

Additional observations from a re-analysis of the deposited data

Results flagged for a closer look

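The CPM of Arl2 in the FP libraries held 1 value apart from the rest: 3.12 in FP replicate 1, against 4.35, 4.21 and 4.21 in FP replicates 2 to 4. Its gap to the nearest value was 0.884 of the group's whole range, past Dixon's 95% limit for 4 values. It was the 1 case among 70 sets of 4 FP values checked, and chance gives about 1 in 20.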

How the results depend on the processing

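All 8 subunit genes stayed higher after FP under each alternative, and the number past the threshold was 6 to 8. Cct3 ran from 0.45 to 0.63 and Cct4 from 0.43 to 0.64 on the log2 scale when 1 library was left out; with library size alone they were 0.24 and 0.24, and Cct4 was 0.31 with upper-quartile factors. Cct5 did not pass with no filter (0.94, adjusted p = 0.0557). The calls over all genes, 3355 higher and 2953 lower, were 2023 and 5046 with library size alone and 2399 and 4823 with upper-quartile factors. Without 1 library there were 4088 to 7277 calls and 1774 to 3389 lower genes, and the lowest counts were without PBS replicate 3. Foxp3 changed sign under upper-quartile scaling (-0.068) and without a factor (-0.13), as did Myc without a factor (-0.056). The change of Cct6a relative to the summed subunits was -0.0081 and ran from -0.047 to 0.022 when 1 library was left out, with 0.0042 without PBS replicate 2. The cause of these changes was not tested.

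Of all genes tested, 39.5% were called in the main fit, 23.4% with no filter and 49.3% with a replicate block, the lowest and highest shares. The lists below are too short to read against these shares. Other chaperonins had 2 of 5 tested genes past the threshold, 1 in limma-voom, 1 with no filter and 1 to 4 without 1 library. Prefoldin-like and R2TP genes had 2 of 8, with 1 by library size alone and 0 to 4 without 1 library. Regulators had 1 of 4, with 2 by upper-quartile factors, 2 by library size alone and 0 to 2 without 1 library. Co-chaperones had 1 of 4, with 2 in DESeq2 and 1 to 2 without 1 library.

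The groups share replicate numbers 1 to 3, but no source says that a number marks a pair, and same-numbered samples deviated together with correlations across genes of 0.22, 0.07 and 0.10. The deposited column names number the samples in another series. In replicate numbers its order is PBS 1, FP 1, FP 2, PBS 2, FP 3, PBS 3 and FP 4. What that order marks is not said, so a block by replicate number may join samples that do not belong together. FP replicate 4 has no partner of its number and drops out of a fit with the number as a replicate block. In that fit 7870 genes were called against 6308, or 49.3% of all genes tested against 39.5%. All 8 subunits passed. So did 4 of 5 other chaperonins, 5 of 8 prefoldin-like and R2TP genes, 2 of 4 regulators and 2 of 4 co-chaperones. Myc was among these regulators (0.33, adjusted p = 0.00754). These lists are too short to read against the share of all genes. Leaving out FP replicate 4 without a block already gave 7277 calls. FP replicate 2 correlated best with PBS replicate 1 (0.21) and FP replicate 4 with PBS replicate 3 (0.39), the highest of all pairs.

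Per kilobase of the longest transcript, levels after FP and after PBS were 57.4 and 30.1 for Tcp1, 155 and 81.5 for Cct2, 47.0 and 32.7 for Cct3, 86.4 and 59.9 for Cct4, 155 and 82.1 for Cct5, 65.8 and 38.5 for Cct6a, 51.4 and 29.7 for Cct7 and 95.3 and 59.3 for Cct8. With library size alone the PBS levels of Tcp1, Cct6a and Cct8 were 22.7, 29.0 and 51.1. Counts of 956 to 4145 per subunit and library leave little counting error.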
